A study of Rattus norvegicus with 4 samples.

Results

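*Cish* and the *Socs* genes encode the CIS and SOCS proteins, feedback inhibitors of cytokine and growth hormone signaling, and their expression was examined in livers of rats anesthetized with sevoflurane or desflurane. The group consisted of 8 listed genes (*Cish* and *Socs1* to *Socs7*), and 7 of them were found by gene symbol among the 16992 annotated genes of the tables. *Socs7* had no row under its symbol and was not analysed here. The genes were selected on the 6 hour against control changes of the same libraries, since a decrease of *Cish* with desflurane was already known, so that all of the values are given as a description and nothing was tested. The shortest of the 7 rows spanned 863 bp and was well above the limit of 200 bp for the length of a row.

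Total RNA of the left lateral liver lobe was sequenced from 4 male wild-type Wistar rats, which had been purchased at 6 weeks of age and acclimatized for at least 1 week. Each condition was represented by 1 rat: 6 hours of 4.5% sevoflurane, 6 hours of 6% desflurane, and a control for each agent that inhaled it only until consciousness was lost, in less than 1 minute. All rats had been without food and water for 2 hours before inhalation began. They inhaled the agent through a nose cone while breathing spontaneously, so the controls had also been exposed to anesthetic. All were sacrificed at about the same time of day. No feeding is described during the 6 hours of anesthesia, so a longer time without food in these rats cannot be told apart from the anesthesia. Because there was 1 library per condition, rat and condition cannot be told apart, no value has a replicate error, and no p-values were calculated. Differences below are therefore differences between single livers. A whole liver piece contains several cell types, and in such bulk RNA fewer cells of a type and less RNA per cell cannot be told apart.

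Cytokine and growth hormone receptors have no kinase activity of their own and signal through JAK kinases, which phosphorylate STAT transcription factors. Activated STATs switch on *Cish* and several *Socs* genes, and the proteins then bind the receptor or the JAK, or bring an Elongin and Cullin 5 ubiquitin ligase to them through the SOCS box, which closes a negative feedback loop. In liver, *Cish* and *Socs2* are classical targets of growth hormone, which male rats secrete in pulses and which acts through STAT5, whereas *Socs3* is known as a target of interleukin-6 through STAT3 and *Socs1* as a target of interferon gamma. *Socs4*, *Socs5*, and *Socs6* encode larger proteins that are better known for acting on receptor tyrosine kinases and insulin signaling.

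The windows upstream of the genes that passed the calling rule in at least 1 comparison are shown first, because STAT proteins bind the palindromic motif TTCNNNGAA, which reads the same on both strands. RefSeq windows of the GRCr8 assembly, from 250 bases before to 50 bases after the annotated start, were at hand for 5 of the 8 genes. None was at hand for *Socs2*, *Socs5*, and *Socs7*. The windows of *Cish* (chr8:116850719-116851018, plus strand) and *Socs3* (chr10:103694719-103695018, minus strand) are printed 5′ to 3′ with each match in capitals.
Cish: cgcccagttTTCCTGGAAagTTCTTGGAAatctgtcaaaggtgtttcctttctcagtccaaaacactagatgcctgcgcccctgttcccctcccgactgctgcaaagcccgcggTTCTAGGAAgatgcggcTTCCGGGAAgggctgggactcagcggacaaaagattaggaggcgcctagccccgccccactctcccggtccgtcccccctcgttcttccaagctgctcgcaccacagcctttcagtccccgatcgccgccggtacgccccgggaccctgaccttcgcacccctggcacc
Socs3: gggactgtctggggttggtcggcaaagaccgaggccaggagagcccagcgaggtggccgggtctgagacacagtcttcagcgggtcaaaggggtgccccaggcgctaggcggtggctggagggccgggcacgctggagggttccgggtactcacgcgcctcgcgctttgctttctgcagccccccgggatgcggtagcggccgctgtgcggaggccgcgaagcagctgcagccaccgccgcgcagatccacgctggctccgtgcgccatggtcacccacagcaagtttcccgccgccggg
The *Cish* window held 4 matches, none of which overlapped another, and their first bases were 241, 230, 136, and 119 bases upstream of the start. Among 33469 windows of the same length, 8.87% held at least 1 match, 0.547% held at least 2, and 2 windows held at least 4. *Socs1* held 1 match, and *Socs3*, *Socs4*, and *Socs6* held 0. The annotated start used for the *Socs3* window was 1207 bases inside the longest annotated span of the gene, and that of *Socs6* was 6128 bases inside, so these windows are not at the outer end of the gene. A match is a sequence description, and binding of a STAT protein was not measured.

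**Figure D1:**
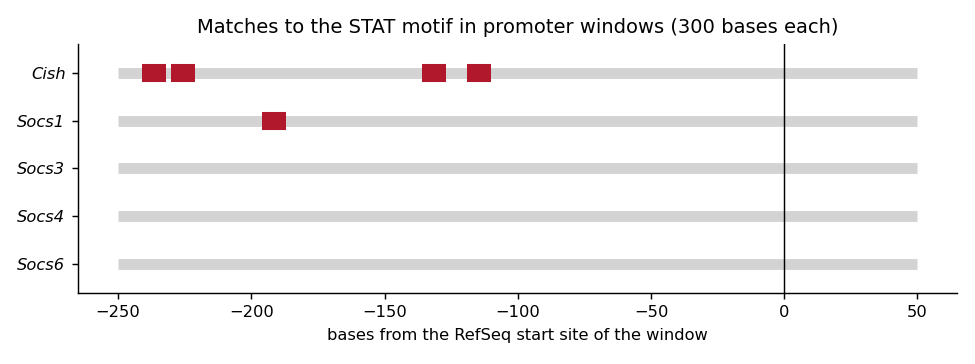
Positions of the motif TTCNNNGAA (red) in the 5 promoter windows at hand, each a grey bar of 300 bases, plotted in bases from the RefSeq start site of the window. *Cish* carries 4 matches, *Socs1* carries 1, and the other windows carry 0.

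The libraries were of similar depth, with 4.47 to 5.40 Gb of aligned sequence derived from the ratio of FPKM to coverage, and 9474 to 9695 genes had TPM values (a transcript level corrected for length) above 2. The median coverage of genes with TPM values from 1 to 4 was 3.73 to 4.27 reads per base. A gene was called lower or higher when its TPM value exceeded 2 in the higher library and the ratio of the 2 libraries was more than 2-fold. Each of the 7 genes had 1 annotated row per library.

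*Cish* (rn6 chr8:116054547-116059494, plus strand) encodes CIS, which binds activated growth hormone and cytokine receptors at the sites used by STAT5. Its TPM value was 21.9 in the control and 3.63 after 6 hours in the sevoflurane pair, and the respective values of the desflurane pair were 70.0 and 8.40. Both 6 hour livers were therefore below both controls. The average coverage behind these values was 39.4, 6.14, 131, and 14.2 reads per base in the same order. *Cish* was 6.04-fold lower after sevoflurane and 8.34-fold lower after desflurane than in the respective control. In the order of log2 changes, calculated after adding 1 to the TPM values, it was at position 17 from the largest decrease among 9754 genes with sevoflurane and at position 5 among 9855 genes with desflurane. The highest of the 4 levels was 19.3-fold above the lowest, which was the widest range of the 7 genes.

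*Socs2* (rn6 chr7:36496626-36499220, minus strand) encodes the SOCS protein that limits growth hormone receptor signaling and body growth. In the sevoflurane pair, the TPM value was 38.8 in the control and 20.3 after 6 hours, whereas it was 96.4 and 61.2 in the desflurane pair. Each 6 hour liver was below its own control, but the desflurane liver was above the sevoflurane control. The difference was 1.91-fold with sevoflurane and 1.58-fold with desflurane, so neither reached the 2-fold limit. Coverage was high in all libraries, between 34.4 and 180 reads per base.

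*Socs3* (rn6 chr10:106975178-106976040, minus strand) encodes an inhibitor of JAKs that is recruited to the interleukin-6 receptor subunit gp130. The TPM values of the control and the 6 hour liver were 15.2 and 3.74 for sevoflurane, and 24.2 and 9.77 for desflurane. As for *Cish*, both 6 hour livers were below both controls. *Socs3* was 4.06-fold lower after sevoflurane and 2.48-fold lower after desflurane, and both decreases passed the rule. It was at position 41 from the largest decrease with sevoflurane and at position 58 with desflurane.

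*Socs1* (rn6 chr10:4956793-4958471, plus strand) encodes a direct inhibitor of JAK activity that restrains interferon signaling. It was expressed at a low level, with TPM values of 1.35 (control) and 0.511 (6 hours) for sevoflurane, and of 1.20 and 0.309 for desflurane. The controls were close to each other and both 6 hour livers were below them. The ratios were 2.63-fold with sevoflurane and 3.89-fold with desflurane, but no library reached a TPM value of 2 and *Socs1* was not called. The coverage was between 0.521 and 2.42 reads per base, and read counts were not used here, so the counting error of these ratios is unknown.

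*Socs4* (rn6 chr15:24056383-24070868, plus strand), *Socs5* (rn6 chr6:10674371-10704977, plus strand), and *Socs6* (rn6 chr18:85962730-85980833, minus strand) had similar TPM values in all of the libraries. *Socs4*, whose product acts on the epidermal growth factor receptor, ranged from 11.6 to 13.1. *Socs5*, with a related product, ranged from 6.04 to 7.72. *Socs6*, whose product binds the insulin receptor and KIT, ranged from 9.44 to 12.7. The ratio of the highest to the lowest library was 1.13 for *Socs4*, 1.28 for *Socs5*, and 1.35 for *Socs6*, compared with 4.35 for *Socs1*, 4.74 for *Socs2*, and 6.48 for *Socs3*. *Socs6* was 1.26-fold higher after desflurane and was nearly the same after sevoflurane as in its control (9.44 and 9.51).

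**Figure D2:**
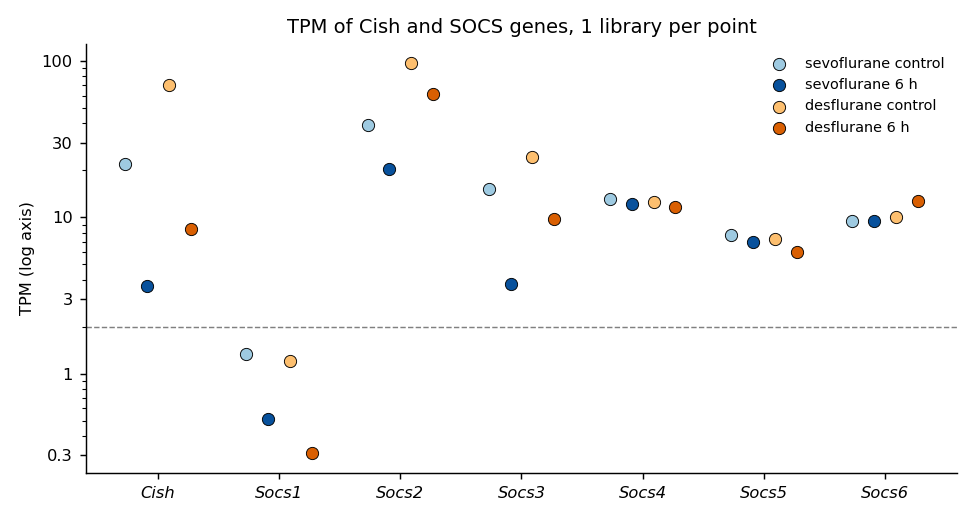
TPM values of the 7 genes on a log axis, with 1 point for each library and a dashed line at the TPM limit of 2. *Cish* spans from 3.63 to 70.0 and *Socs3* from 3.74 to 24.2, whereas *Socs4*, *Socs5*, and *Socs6* remain between 6.04 and 13.1 and *Socs1* stays below the limit.

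Compared with the own control, 2 of the 7 genes, *Cish* and *Socs3*, were called lower with sevoflurane, and 3.30% of the 9754 genes tested (those with TPM values higher than 2 in either library) were called lower in that comparison. The same 2 genes were called lower with desflurane, beside 1.48% of 9855 genes. None of the 7 genes was called higher with either agent, beside 2.23% of genes with sevoflurane and 2.79% with desflurane. All 7 TPM values were below the own control with sevoflurane, and 6 of 7 were below it with desflurane, the exception being *Socs6*. Taking the 7 genes together, the median log2 change was -0.63 (sevoflurane) and -0.65 (desflurane). The corresponding medians of all genes tested were 0.05 and 0.11. These counts follow in part from the way the genes were chosen.

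Exchanging the controls changed the calls of some members. Relative to the desflurane control, the sevoflurane liver had lower values for all 7 genes, and *Cish* (19.3-fold), *Socs3* (6.48-fold), and *Socs2* (4.74-fold) were called lower, beside 2.59% of genes called lower and 2.52% called higher. Relative to the sevoflurane control, only *Cish* among the 7 genes was called lower in the desflurane liver, at 2.61-fold, beside 1.58% of genes called lower and 2.84% called higher. In this comparison *Socs3* was 1.55-fold lower and *Socs2* was 1.58-fold higher. The decrease of *Cish* with both agents was thus present with either control, whereas the call of *Socs3* with desflurane was lost and the direction of *Socs2* with desflurane was turned when the sevoflurane control was used.

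**Figure D3:**
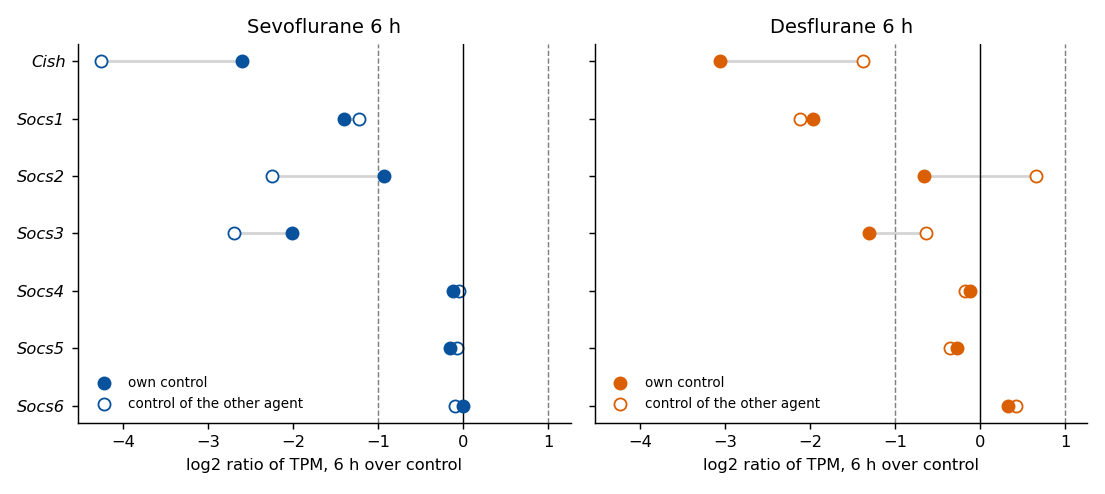
Log2 ratios of TPM values of the 6 hour liver over a control, for sevoflurane (left) and desflurane (right), with the own control as filled points and the control of the other agent as open points. Dashed lines mark 2-fold differences, *Cish* is beyond them on the lower side in all 4 comparisons, and *Socs2* with desflurane lies at -0.66 with its own control and at 0.66 with the other.

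The controls also differed from each other. *Cish* was 3.19-fold higher and *Socs2* was 2.48-fold higher in the desflurane control than in the sevoflurane control, and both were called higher, beside 1.17% of 9756 genes called higher and 1.17% called lower. *Socs3* was 1.60-fold higher in the desflurane control. The other 4 genes differed by less than 1.2-fold between the controls. The difference of *Cish* between the 2 livers without prolonged anesthesia was thus larger than its 2.61-fold decrease from the sevoflurane control to the desflurane liver.

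The 6 hour livers differed in the same direction. Of the 2 livers taken at 6 hours, that of the desflurane rat had 3.01-fold higher *Socs2*, 2.61-fold higher *Socs3*, and 2.31-fold higher *Cish*. These 3 genes were called higher, beside 2.76% of 9829 genes called higher and 1.17% called lower. Accordingly, *Cish*, *Socs2*, and *Socs3* had higher values in the desflurane rat than in the sevoflurane rat of the same time, both as control and at 6 hours, while for each agent the 6 hour liver was below its own control.

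Because TPM values are corrected for length, the levels of the genes, here of their annotated rows, can be compared within a library. In both controls the order from high to low was *Socs2*, *Cish*, *Socs3*, *Socs4*, *Socs6*, *Socs5*, and *Socs1*, although no spread is known for neighbours in this order. After 6 hours of sevoflurane, *Cish* had moved below *Socs4*, *Socs6*, *Socs5*, and *Socs3*, and only *Socs1* was lower. *Cish* and *Socs3* were nearly equal there (3.63 and 3.74). By the assembled rows described below, *Socs3* was 3.49 in that liver, below *Cish*. In the sevoflurane control it was 11.3 by the assembled row, below *Socs4* (13.1). After 6 hours of desflurane, *Cish* was below *Socs6*, *Socs4*, and *Socs3* and above *Socs5*. *Socs2* was the most abundant gene in all 4 libraries. The level of *Socs2* relative to that of *Cish* was 1.77 and 1.38 in the sevoflurane and desflurane controls, and it was 5.60 and 7.29 after 6 hours, so the decrease of *Cish* exceeded that of *Socs2* with both agents. The summed TPM value of the 7 genes was 108 in the sevoflurane control, 56.7 after sevoflurane, 222 in the desflurane control, and 110 after desflurane. *Cish*, *Socs2*, and *Socs3* made up 70.5%, 48.9%, 85.9%, and 72.1% of this sum.

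The tables also held rows for transcripts that StringTie assembled without a gene name. These rows were not independent of the annotated rows. In each library 4515 to 4644 annotated rows had an assembled row with the same start, end, and strand, and in 84.4% to 86.7% of these cases the TPM values were within 0.1% of each other. At *Cish* the assembled row gave the same values as the annotated row in 3 libraries and 22.3 instead of 21.9 in the sevoflurane control. At *Socs2*, however, the assembled row was longer, between 4252 and 16401 bp compared with 2595 bp for the annotated row, and its TPM values were 67.2, 22.2, 122, and 43.6 in the sevoflurane control, the sevoflurane liver, the desflurane control, and the desflurane liver. By these values, *Socs2* was 3.03-fold lower with sevoflurane and 2.79-fold lower with desflurane, past the 2-fold limit that the annotated row did not reach. The assembled value in the desflurane liver was then 1.54-fold below the sevoflurane control instead of above it. The assembled values also put *Socs2* under the 2-fold limit between the controls (1.81-fold) and between the 6 hour livers (1.96-fold), so both of these calls of the annotated row were lost. The span of the assembled row differed between libraries, and which span represents the transcript was not tested. At *Socs3*, the assembled row of 3026 to 3093 bp gave decreases of 3.24-fold with sevoflurane and 2.09-fold with desflurane. At *Socs1* no assembled row was present.

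**Figure D4:**
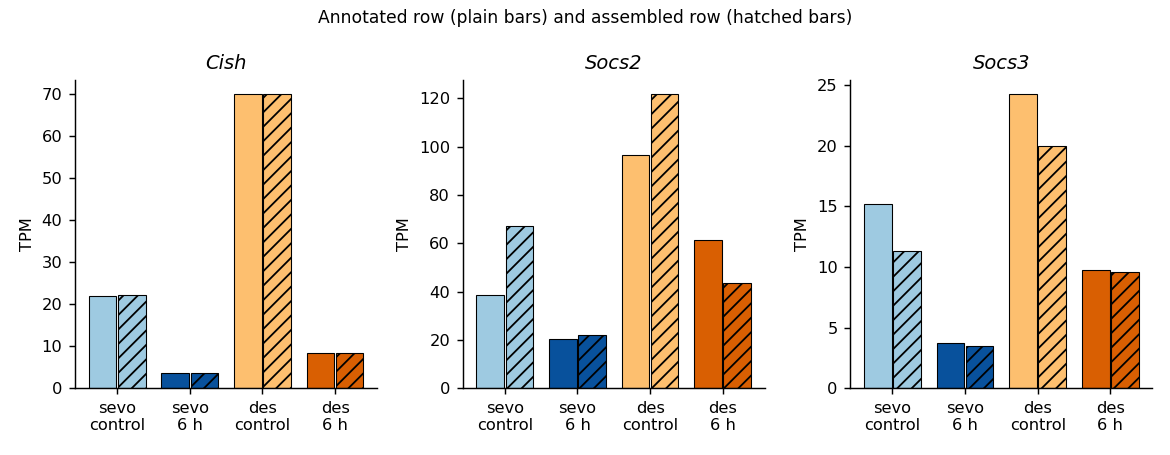
TPM values from the annotated row (plain bars) and the assembled row at the same gene (hatched bars) for *Cish*, *Socs2*, and *Socs3* in the 4 libraries. The bars agree closely for *Cish*, while for *Socs2* the assembled row is higher in both controls (67.2 and 122) and lower in the desflurane liver (43.6).

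Genes of the surrounding pathway were examined next, in order from the receptor to the target genes. Among 18 measured genes of cytokine receptors and JAKs, 1 was called lower with sevoflurane and 2 were called higher with desflurane, and the median log2 changes were -0.07 and 0.28. The growth hormone receptor gene *Ghr* was the most abundant, with TPM values of 279 (control) and 219 (6 hours) for sevoflurane and of 289 and 258 for desflurane, so it was not called. *Il6r*, the interleukin-6 receptor, was 44.1 in the desflurane control and 99.8 after desflurane, a 2.27-fold difference, and it was 1.12-fold higher after sevoflurane. *Lepr*, the leptin receptor, was 2.01-fold higher with desflurane and 1.67-fold higher with sevoflurane. *Il2rg*, the common gamma chain of lymphocyte cytokine receptors, was 2.29-fold lower with sevoflurane.

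The genes of the growth hormone-activated factors, *Stat5a* and *Stat5b*, were not called. *Stat5b* was 34.2 in the sevoflurane control, 28.6 in the sevoflurane liver, 36.9 in the desflurane control, and 34.0 in the desflurane liver. *Stat3*, the gene of the interleukin-6-activated factor, was 45.5, 65.5, 39.1, and 52.1 in the same order, above the own control with both agents by less than 2-fold. These 3 genes were named after their values had been seen. Thus the levels of the RNAs for the growth hormone receptor and STAT5 differed far less than those of *Cish*. Phosphorylation of the proteins was not measured.

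Among 11 genes known to respond to growth hormone or to its sex-specific pattern, 1 was called lower and 2 higher with sevoflurane, and 1 was called higher with desflurane. *Cux2*, a transcriptional repressor known to be more abundant in female than in male liver, was 0.837 in the sevoflurane control, 9.59 after sevoflurane, 9.23 in the desflurane control, and 15.9 after desflurane. *Bcl6*, a repressor that competes with STAT5 on DNA, was 50.7, 16.6, 5.87, and 8.49 in the same order. *Onecut1*, a hepatocyte transcription factor, was 15.2, 33.9, 61.2, and 41.9. For these 3 genes, the sevoflurane control was the library that stood apart, with *Bcl6* above and *Cux2* and *Onecut1* below the other livers. *Cyp2c11*, the male-specific cytochrome P450, was 1457, 1245, 544, and 1146 and was 2.11-fold higher with desflurane, and the desflurane control was lower than the other 3 livers. *Cyp3a2*, another male-predominant enzyme and the most abundant of the list, was 2599, 2437, 1566, and 2172. *Cyp2c12* of this list, named after its values were seen, was 50, 32.65, 192.7, and 155.5 and was not called against its own control. It was called higher in the desflurane rat than in the sevoflurane rat, both between the controls (3.85-fold) and at 6 hours (4.76-fold). The circulating growth factor *Igf1* and its carrier *Igfals*, named here after their values were seen, were lower than the own control with both agents without reaching 2-fold. *Igf1* was 932, 774, 1191, and 1010, and *Igfals* was 238, 165, 312, and 173. For *Igf1*, the desflurane liver was above the sevoflurane control. *Igfbp3* of the same list, also named after its values were seen, was 87.3, 83.9, 72.9, and 101, higher than the own control with desflurane. The median log2 change of the list was -0.23 with sevoflurane and -0.20 with desflurane, and with the desflurane control it was -0.02 for the sevoflurane liver. Because the list joins genes more abundant in male liver with *Cux2*, more abundant in female liver, its median does not measure growth hormone signaling.

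Genes of the interleukin-6 and STAT3 acute phase response passed the rule in both directions. Of 20 measured genes, 2 were called lower and 1 higher with sevoflurane, and 3 were called lower and 1 higher with desflurane, with median log2 changes of -0.02 and 0.13. *Crp*, the C-reactive protein and the most abundant of these genes, was 6474, 7927, 7889, and 8838 in the order of libraries given above. *Hamp*, the iron regulatory hormone hepcidin, was 1487, 458, 893, and 30.4 and was called lower with both agents. *Bcl3*, a nuclear partner of NF-kB, was 10.7, 5.93, 12.0, and 4.76 and was called lower with desflurane at 2.51-fold. *Lcn2*, an acute phase lipocalin, was 3.44, 12.7, 18.5, and 5.92 and passed the rule in opposite directions. *Mt2A*, a metallothionein, was 1245, 1424, 455, and 1583 and was 3.48-fold higher with desflurane.

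Of 13 measured genes of the interferon gamma response, 9 were called lower with sevoflurane and 1 with desflurane, and none was called higher. As a median, the log2 change was -1.58 (sevoflurane) and -0.34 (desflurane), and it was -0.84 and -0.71 when the controls were exchanged. *Irf1*, an interferon-induced transcription factor, was 23.8, 4.71, 19.1, and 8.65 and was called lower with both agents. The guanylate-binding protein genes *Gbp5* and *Gbp2* were 8.70-fold and 6.55-fold lower with sevoflurane, and 1.35-fold and 1.59-fold lower with desflurane. The chemokine gene *Cxcl10* was 6.03-fold lower with sevoflurane and 1.67-fold lower with desflurane. The immunoproteasome subunit gene *Psmb8* was 3.11-fold and 1.41-fold lower. *Socs1*, the feedback inhibitor of this response, stayed below the TPM limit. Its ratio to the own control was larger with desflurane (3.89-fold lower) than with sevoflurane (2.63-fold lower), unlike the medians of the list.

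Other inhibitors of the JAK-STAT pathway included tyrosine phosphatases and PIAS proteins. Of 12 measured genes, 2 were called lower with sevoflurane and none was called with desflurane. The 2 genes were *Ptprc*, which encodes the leukocyte phosphatase CD45 (13.7, 4.11, 9.24, and 10.9), and *Usp18*, an interferon-induced inhibitor of the interferon receptor (26.9, 11.9, 13.4, and 10.4). *Pias2*, the most abundant gene of the list, was between 26.5 and 31.5 in all libraries. The median log2 changes were -0.22 and 0.02.

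None of the 10 measured genes for subunits and enzymes of Elongin and Cullin ubiquitin ligases was called with either agent. The median log2 changes were 0.12 and 0.01. The list held *Cul2* and *Rbx1* beside *Cul5* and *Rnf7*, so it was not limited to the Cullin 5 ligase that the SOCS box recruits. *Elob*, which encodes Elongin B, was between 202 and 237 in the 4 libraries. Of 27 measured genes of other SOCS box proteins, 13 or 14 had TPM values higher than 2 in either library of a comparison, and the only call was *Wsb1*, at 7.89 in the sevoflurane control and 20.8 after sevoflurane. *Wsb1* was 1.79-fold higher with desflurane. *Wsb2*, the most abundant of them, was between 29.8 and 34.9. Among 10 receptors and adaptors on which SOCS proteins are known to act outside cytokine signaling, the only call was *Irs2*, an insulin receptor substrate, which was 8.34 in the desflurane control and 19.95 after desflurane. *Egfr*, the most abundant of this list, was 131, 97.7, 113, and 157.

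**Figure D5:**
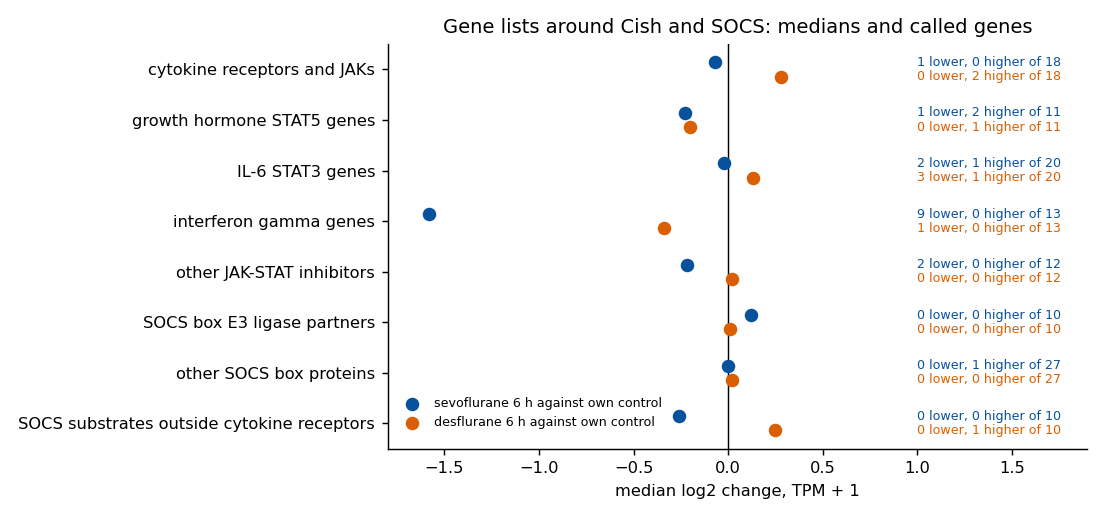
Median log2 change (TPM values plus 1) of 8 gene lists around *Cish* and the *Socs* genes, with sevoflurane in blue and desflurane in orange, and the number of measured genes called lower or higher at the right. The list of interferon gamma genes has medians of -1.58 and -0.34, and the medians of the other 7 lists lie between -0.26 and 0.28.

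Marker genes of other cell types were read beside these results, since *Socs1* and *Socs3* are also expressed in leukocytes. The summed TPM value of 6 hepatocyte genes was 134119 in the sevoflurane control, 128223 after sevoflurane, 130084 in the desflurane control, and 143758 after desflurane. The 9 Kupffer cell and macrophage genes summed to 703, 444, 548, and 671 in the same order, and 2 of them were called lower with sevoflurane and none with desflurane. The 10 genes of T and NK cells summed to 31.8, 22.7, 30.3, and 31.8, and *Cd3d* and *Cd3g* were listed at 0 in the desflurane control. Most of each sum came from *Cd4* (19.1, 18.3, 21.8, and 23.3), which differed little. Of the 4 genes with TPM values above 2 in the sevoflurane pair, 3 were called lower. The 3 measured B cell genes summed to 4.62, 2.04, 2.76, and 2.74 with 1 called lower with sevoflurane. The 4 neutrophil genes, none of which was called, summed to 2.58, 2.58, 3.96, and 1.22, and *Mpo* was listed at 0 in the sevoflurane control and the sevoflurane liver. The sums of the macrophage, T and NK cell, and B cell markers were thus below the control in the sevoflurane pair, as were *Cish* and *Socs3*, and the neutrophil sum was the same. In the desflurane pair, *Cish* and *Socs3* were again lower after 6 hours, and the leukocyte sums went in different directions. The macrophage sum was higher (548 and 671) and the neutrophil sum was lower (3.96 and 1.22). The sums of T and NK cells (30.3 and 31.8) and of B cells (2.76 and 2.74) were similar. The part of these cells in the results was not tested. The 5 endothelial genes (168 to 197), the 5 stellate cell genes (55.0 to 76.1), and the 3 measured cholangiocyte genes (11.0 to 16.9) included no gene called against its own control with either agent. The 3 erythroid genes summed to 77.9, 53.9, 57.4, and 32.0, with 1 called lower with each agent. The 5 pancreatic acinar genes summed to 43.9 in the sevoflurane control and to between 15.1 and 18.4 in the other livers, and 4 of them were called lower with sevoflurane. The sum in the other livers came almost entirely from *Cela1* (15.1 to 18.4, compared with 22.8 in the sevoflurane control). *Ctrb1*, *Prss1*, and *Pnlip* had TPM values of 8.94, 6.58, and 3.45 in the sevoflurane control and were listed at 0 in the other 3 livers. *Cpa1* was 2.13 in the sevoflurane control, 0.038 after sevoflurane, and listed at 0 in both desflurane livers. The part of this difference in the comparisons that use the sevoflurane control was not tested.

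Finally, the genes with the profiles most similar to those of *Cish*, *Socs2*, and *Socs3* were listed. Similarity was the Euclidean distance between log2 profiles (TPM values plus 1, centred on their mean) over the 4 libraries, among 9993 genes that passed the TPM limit of 2 in at least 1 library. For *Cish* the 5 nearest genes were *Bmf* (distance 1.21), *Pnpla3* (1.22), *Socs3* (1.32), *Inhba* (1.53), and *Tsc22d1* (1.54). *Bmf*, which encodes a pro-apoptotic BCL2 family protein, had TPM values of 34.9, 6.11, 40.9, and 13.5 in the order of libraries given above. *Pnpla3*, a gene for a lipid droplet protein, had values of 2.74, 1.02, 11.8, and 2.29. *Socs2* was at position 33 from *Cish*, at a distance of 1.89. For *Socs2* the nearest genes were *Arntl* (0.34), *Hebp2* (0.36), *Npas2* (0.60), *Rnase13* (0.62), and *Gstt3* (0.63). *Arntl* and *Npas2*, which encode transcription factors of the circadian clock, had values of 1.93, 0.963, 5.66, and 3.4 and of 4.16, 1.41, 6.39, and 4.56. For *Socs3* the nearest genes were *Foxa2* (0.51), *Bmf* (0.54), *Unc5cl* (0.55), *Arhgef37* (0.58), and *Dusp6* (0.58). *Foxa2*, a hepatocyte transcription factor, had values of 30.5, 12.7, 44.5, and 22.9. These distances rest on 4 points and describe these libraries only. All profiles were those of the annotated rows. The assembled row of *Socs2* ordered the libraries differently, and the genes nearest to it were not determined. *Bmf* was the only gene listed for more than 1 of the 3 profiles.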

How the data were processed

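RNA of 4 rat livers, 1 for each condition, was sequenced. The labels gave the condition of each sample. The authors trimmed the reads, aligned them to rn6 with HISAT2, sorted them with SAMtools, and ran StringTie with the refGene annotation. The deposited tables give the average coverage of each gene, a signal not normalized for library size. FPKM values in the deposited tables were normalized for library size by the authors' StringTie run. TPM values were deposited on a scale on which the assembled rows alone add up to 1000000. Tests for counts could not be used.

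After removal of rows of 200 bp or less, summing TPM over rows of 1 symbol gave 16992 genes. The calling rule was that of the authors: a TPM value higher than 2 in the higher library and a difference of more than 2-fold, without a pseudocount. Ratios are ratios of TPM values, and log2 medians and ranks were calculated with a pseudocount of 1 TPM. No test was made with 1 library per condition. The list of STAT factors is not reported here. The genes and gene lists were chosen with earlier results of these data known.

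Named genes were the members, the most abundant gene and up to 4 genes called against their own control with the largest changes in each list, and the 5 nearest profiles of 3 members. Others are marked. Promoter windows came from RefSeq (GRCr8), whose coordinates differ from those of rn6. Alternatives covered the control, the TPM and fold limits, pseudocounts, scaling, FPKM, row filters, and assembled rows. Python 3.11.15 with pandas 2.3.3, numpy 2.4.6, and matplotlib 3.10.9 was used, and the scripts for the calls were tested on simulated data beforehand.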

Additional observations from a re-analysis of the deposited data

Results flagged for a closer look

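Among the 7 members and the named genes of the lists, 35 genes in all, 9 had log2 changes of opposite sign with sevoflurane and desflurane relative to their own controls. With 1 liver per condition, these differences between the agents were not tested. The values are log2 changes after adding 1 to the TPM values, with sevoflurane first. *Socs6*, the only member among them, had values of -0.01 and 0.30. In the growth hormone list, *Onecut1* had values of 1.1 and -0.53, *Bcl6* of -1.56 and 0.47, *Cyp2c11* of -0.23 and 1.07, and *Cyp3a2* of -0.09 and 0.47. *Lcn2* had values of 1.63 and -1.50. *Ptprc* had values of -1.53 and 0.22. *Egfr* had values of -0.42 and 0.47, and *Irs2* of -0.47 and 1.17.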

How the results depend on the processing

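No paired analysis was possible because each condition has 1 library, and no library could be left out for the same reason. The number of members called, given by comparison and direction, was within 1.5 times of the reported number in 87 of 92 alternatives. This count is not a measure of stability. Each member had 1 row above the length limit, so the row filters could not change it. The numbers called higher against the own control were 0 throughout. A change from 2 to 3 members, as when *Socs1* or *Socs2* was added, is still within 1.5 times. With the control of the other agent, 1 member (*Cish*) instead of 2 was called lower with desflurane. With a 3-fold limit, 1 member was called lower with desflurane (*Cish*), 1 differed between the controls (*Cish*), and 1 differed between the 6 hour livers (*Socs2*). With the assembled row in place of the annotated row, an alternative chosen after seeing the data, 1 member (*Cish*) differed between the controls instead of 2, and *Socs2* was called lower with both agents but no longer higher after desflurane than after sevoflurane at 6 hours (1.96-fold), which left 2 members called there. The cause of these differences was not tested. *Cish* and *Socs3* kept their direction with both agents in all 16 alternatives, and *Cish* kept its call in all of them. The limits and row filters leave a member's ratio unchanged, and a pseudocount cannot turn its direction. Scaling and FPKM shift all genes of a comparison alike, and by too little to turn *Cish* or *Socs3*. With FPKM, *Cish* had log2 changes of -2.65 (sevoflurane) and -3.14 (desflurane) instead of -2.60 and -3.06. The assembled row of *Cish* was nearly the same as its annotated row. For *Cish*, only the choice of control could therefore have turned the direction, and for *Socs3* also the assembled row. *Socs3* lost its call with desflurane with the control of the other agent and with a 3-fold limit. *Socs1* was called lower with both agents when the TPM limit was 1, was absent, or was replaced by a coverage of at least 1. *Socs2* was called lower with both agents with a 1.5-fold limit or when the assembled rows were added, which counts reads more than once, and with sevoflurane when the other control or the mean of the controls was used. *Socs2* with desflurane was the only member fold whose direction turned, with the other control. Median-of-ratios scaling changed no call of a member. It shifted the log2 changes of all genes by -0.13 with desflurane and by -0.04 with sevoflurane, and turned the medians of other JAK-STAT inhibitors and of ubiquitin ligase partners with desflurane from 0.02 to -0.10 and from 0.01 to -0.11. Of 90 alternative values of list medians, 17 moved from the reported value. With the mean of the controls, the growth hormone list had a median of 0.06 with desflurane. When the desflurane control was used, medians with sevoflurane moved from -0.23 to -0.02 for the growth hormone list and from -0.26 to -0.13 for the substrates of SOCS proteins. Read counts were not used here, so the counting error is unknown, which limits *Socs1* most.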
